A study of Mus musculus with 16 samples.

Results

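Protein kinase A (PKA) is the kinase that cyclic AMP (cAMP) activates. Its subunits are encoded in the mouse by 2 catalytic genes, Prkaca and Prkacb, and 4 regulatory genes, Prkar1a, Prkar1b, Prkar2a and Prkar2b. All transcripts carrying one of these 6 gene names were taken, which gave 23 of the 80137 transcripts and 6 of the 18287 gene names measured. RNA came from the hippocampus of 16 male wild-type C57BL/6 mice of 3 months, with 4 mice and 4 libraries per group and both hippocampi of a mouse pooled. Homecage (HC) mice stayed in their cages and had no handling, shocks or testing, so Ctrl and HC mice differ in all of these. Control (Ctrl) mice were put into the shuttle box without shocks and on the next day took the test, a session of 30 trials in which a shock of 0.4 mA could be escaped. Mice of the non-learned helpless (NLH) and of the learned helpless (LH) group had first been given 180 shocks of 0.4 mA that could not be escaped and then took that same test. All tissue was taken 3 h after the test. NLH and LH mice went through the same sessions and were assigned afterwards by clustering on their escape failures and escape latency. A test shock ended when the mouse escaped, so mice that failed more often or escaped later also received more shock, and between these groups behavior and the shock received in the test cannot be told apart. No group had the inescapable shocks without the test.

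In the absence of cAMP, the inactive holoenzyme is a tetramer in which a dimer of regulatory subunits holds a pair of catalytic subunits. Binding of cAMP to the regulatory subunits frees the catalytic subunits, which phosphorylate ion channels, receptors and transcription factors such as CREB. Type I regulatory subunits (Prkar1a, Prkar1b) are found largely in the cytosol and type II subunits (Prkar2a, Prkar2b) are mostly tethered by A kinase anchoring proteins, and Prkar1b and Prkar2b are known for their expression in neurons. In the hippocampus PKA is best known for its part in late long-term potentiation and in the consolidation of memory.

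Expression was measured as FPKM, the fragments assigned to a transcript relative to both transcript length and library size, so levels can be compared between genes. A gene's level is the sum over its named transcripts. The libraries differed in ways that touch every comparison with LH mice. LH replicates 3 and 4 had 10846 and 15504 transcripts at an FPKM of exactly 0, against 4872 to 7352 in the other 14 mice, and LH replicate 4 had the lowest estimated depth, 20190000 fragments, in a range that reached 38020000. Among transcripts with a mean of at least 1 FPKM, the median SD on the log2 scale was 0.428 among LH mice and 0.178 to 0.246 in the other groups. Differences printed for LH mice are therefore also given without these 2 libraries where leaving them out changed a limma call, turned the sign or moved the difference by over 1.5 times. The 8 hippocampal neuron markers all had a mean of at least 1 FPKM, with summed levels of 90.4 to 149 in LH mice and 95.8 to 117 in the others. Striatal markers were low, with Drd2 and Adora2a at means of 0.293 and 0.104 FPKM, and their sum spanned 7.53 to 18.3 FPKM in LH, 10.2 to 12.8 in Ctrl, 8.71 to 14.3 in NLH and 10.1 to 12.1 in HC mice. The summed choroid plexus markers, all 5 of which had a mean of at least 1 FPKM, spanned 1.59 to 81.1 FPKM in LH, 14.0 to 46.7 in Ctrl, 3.10 to 59.0 in NLH and 2.39 to 34.9 in HC mice. The part of these libraries and of tissue composition in the results was not tested. In whole tissue, fewer cells of a type and less RNA per cell cannot be told apart.

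The catalytic genes each use several first exons, and these decide the start of the protein. Positions are those of GENCODE vM21 on GRCm38, which held all 23 transcripts. Prkaca lies on the forward strand of chromosome 8 from 83972993 to 83996443, and Prkacb on the reverse strand of chromosome 3 from 146729574 to 146812990. Prkacb-201, Prkacb-202, Prkacb-203 and Prkacb-204 have 10 exons each and differ in their first exon, of which Prkacb-202 starts at 146812960, Prkacb-201 at 146781416, Prkacb-204 at 146770781 and Prkacb-203 at 146770261. The coding part of the first exon is given in capitals, followed in lower case by the first 30 bases of the next exon, because it is what separates the isoforms whose levels are compared here. It is 46 bases long in Prkacb-202 and only 7 in Prkacb-203 and 10 in Prkacb-204.
Prkacb-202: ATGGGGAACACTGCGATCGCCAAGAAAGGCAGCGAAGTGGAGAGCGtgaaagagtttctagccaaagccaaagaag
Prkacb-203: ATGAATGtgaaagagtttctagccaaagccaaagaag
Prkacb-204: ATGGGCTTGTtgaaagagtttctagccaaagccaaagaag
Prkaca-201: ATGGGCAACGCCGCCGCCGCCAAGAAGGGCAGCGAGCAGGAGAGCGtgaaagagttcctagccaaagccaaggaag
Prkaca-202: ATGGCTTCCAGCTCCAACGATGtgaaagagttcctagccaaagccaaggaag

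Prkaca-201 and Prkacb-202, the first-exon forms known as C alpha 1 and C beta 1, shared 36 of 46 coding bases of the first exon and 28 of 30 bases of the next. Prkaca-202 is the short-start form, best known from sperm, with 22 coding bases in its first exon. It has 212 bases that Prkaca-201 lacks, and Prkaca-201 has 1089 that Prkaca-202 lacks. All Prkacb isoforms listed here continue with the same 30 bases. A fragment from the shared exons therefore cannot be tied to one isoform by sequence, and the bases that no other Prkacb transcript in the data holds numbered 614 in Prkacb-202, 328 in Prkacb-203, 266 in Prkacb-204 and 270 in Prkacb-201.

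The windows around the starts of the 2 most abundant Prkacb isoforms also differed in composition. They are given on the reverse strand from 250 bases before to 50 bases after the RefSeq start (GRCm38.p6) that lies nearest to each isoform, and the motifs searched on both strands are in capitals. These were the cAMP response element TGACGTCA, its core TGACG, the GC box GGGCGG and the TATA box TATAAA. The first window (chr3:146812897-146813196) has a GC content of 72% and holds 3 GC boxes and 1 core. Its RefSeq start lies 14 bases from the start of Prkacb-202. The second (chr3:146770189-146770488) has a GC content of 42.3% and holds none of the 4 motifs. Its RefSeq start lies 23 bases from the start of Prkacb-203.
Prkacb-202 start: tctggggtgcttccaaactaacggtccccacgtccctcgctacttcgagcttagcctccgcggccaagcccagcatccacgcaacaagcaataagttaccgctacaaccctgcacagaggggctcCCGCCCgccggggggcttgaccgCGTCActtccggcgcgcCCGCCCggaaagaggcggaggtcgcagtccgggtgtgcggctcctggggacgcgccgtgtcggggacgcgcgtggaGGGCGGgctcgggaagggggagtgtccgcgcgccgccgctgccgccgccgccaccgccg
Prkacb-203 start: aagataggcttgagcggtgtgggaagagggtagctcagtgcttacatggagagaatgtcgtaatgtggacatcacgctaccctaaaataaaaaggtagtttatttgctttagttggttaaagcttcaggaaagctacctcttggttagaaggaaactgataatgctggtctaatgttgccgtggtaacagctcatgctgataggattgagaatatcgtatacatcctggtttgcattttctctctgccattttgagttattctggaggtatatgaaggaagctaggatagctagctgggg

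Of 32851 mouse promoter windows of this length, 35.7% held a GC box, 20.8% the core, 1.79% the full element and 13.6% a TATA box. The full element contains the core, and it was found in 2 of the 19 windows of PKA subunit genes, both overlapping windows of Prkar1a. These are matches of letters, not binding sites.

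The 6 genes were expressed at very different levels, and their order was nearly the same in every mouse. Over the 16 mice the mean was 74.6 ± 8.24 FPKM (SD, n = 16) for Prkar1a, 61.0 ± 6.95 for Prkar1b, 36.2 ± 4.86 for Prkacb, 28.5 ± 2.63 for Prkaca, 7.18 ± 2.03 for Prkar2a and 4.39 ± 0.858 for Prkar2b. Prkar1a exceeded Prkar1b in 16 of 16 mice although their ranges over mice overlapped, and Prkar1b exceeded Prkacb, Prkacb exceeded Prkaca and Prkaca exceeded Prkar2a in all 16 mice as well. Prkar2a exceeded Prkar2b in 15 mice, the exception being HC replicate 3. The type I genes thus gave 92.1% ± 1.57 of the regulatory FPKM (SD, n = 16).

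The balance of regulatory to catalytic mRNA varied little. Summed regulatory FPKM was 2.27 ± 0.0754 times the summed catalytic FPKM (SD, n = 16), with a range of 2.13 to 2.41 over mice. By group this ratio was 2.32 ± 0.0849 for HC mice, 2.21 ± 0.0744 for Ctrl mice, 2.30 ± 0.0637 for NLH mice and 2.26 ± 0.0537 for LH mice (SD, n = 4 each). Prkacb contributed 52.9% ± 0.715 of the catalytic FPKM of HC mice, 55.2% ± 1.04 for Ctrl mice, 58.6% ± 1.45 for NLH mice and 56.8% ± 2.88 for LH mice (SD, n = 4 each). HC mice lay at 52.0% to 53.6%, Ctrl mice at 53.7% to 56.1% and NLH mice at 56.5% to 59.8%, so these groups did not overlap, while LH mice at 53.7% to 60.6% overlapped with Ctrl and NLH mice. These are descriptions of chosen genes and carry no test.

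**Figure D1:**
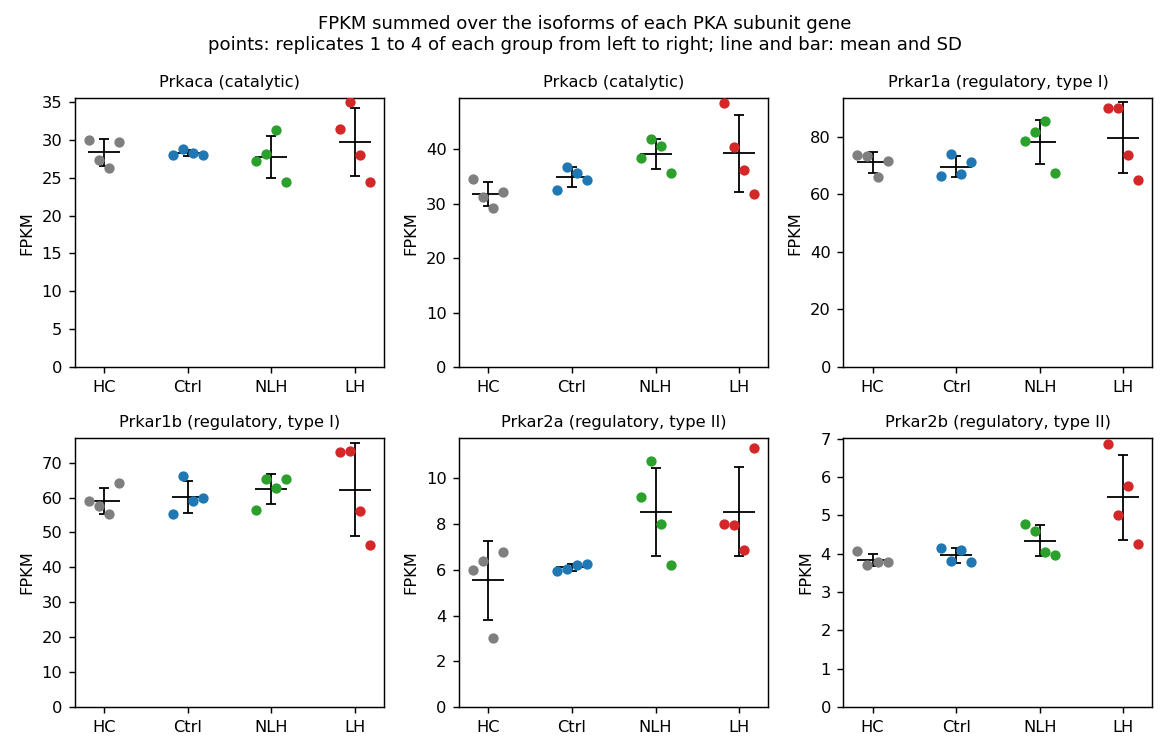
FPKM summed over isoforms (vertical axes, linear) for the 6 PKA subunit genes in the HC, Ctrl, NLH and LH groups, with each point 1 mouse and the line and bar the mean and SD of 4 mice. LH mice have the largest SD for each gene, though for Prkar2a it is 1.95 against 1.92 in NLH mice, and all 4 LH mice lie above all Ctrl mice for Prkar2a and Prkar2b.

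Neither catalytic gene sum passed the limma adjusted threshold of 0.05 in the 4 comparisons, and the groups compared overlapped for both. Prkaca, which encodes C alpha, was at 30.0, 27.4, 26.3 and 29.7 FPKM in HC mice, 28.0, 28.8, 28.3 and 27.9 in Ctrl, 27.2, 28.2, 31.2 and 24.4 in NLH and 31.4, 35, 28.0 and 24.4 in LH mice. Every pair of groups overlapped. The LH vs. Ctrl difference of Prkaca was 0.06 ± 0.11 on the log2(FPKM + 0.1) scale (SE), with a limma adjusted p of 0.876, and the LH vs. NLH difference was 0.09 ± 0.11 with an adjusted p of 0.86. Both were larger without LH replicates 3 and 4, at 0.23 ± 0.09 (limma adjusted p of 0.15) and 0.26 ± 0.09 (0.234). They were smaller without LH replicate 2, at -0.023 ± 0.10 and 0.0083 ± 0.10, and in LH vs. Ctrl without LH replicate 1, at 0.028 ± 0.12. Leaving out NLH replicate 4 gave 0.031 ± 0.11 in LH vs. NLH. Prkacb, which encodes C beta, was at 34.6, 31.2, 29.3 and 32.1 FPKM in HC mice, 32.5, 36.8, 35.6 and 34.3 in Ctrl, 38.4, 41.9, 40.6 and 35.7 in NLH and 48.4, 40.5, 36.2 and 31.7 in LH mice. LH mice held both the highest Prkacb value and one below every Ctrl mouse. HC and NLH mice, which were not set against each other in a test, did not overlap. The share of all genes without overlap between these 2 groups was not counted. The differences were 0.13 ± 0.11 in Ctrl vs. HC (limma adjusted p of 1), 0.17 ± 0.11 in NLH vs. Ctrl (0.982), 0.16 ± 0.11 in LH vs. Ctrl (0.635) and -0.01 ± 0.11 for LH against NLH mice (1). Without LH replicates 3 and 4, Prkacb differed by 0.35 ± 0.10 in LH vs. Ctrl, with a limma adjusted p of 0.0494, and by 0.18 ± 0.10 from NLH mice, with an adjusted p of 0.384. The LH vs. Ctrl difference was 0.049 ± 0.10 without LH replicate 1 and 0.25 ± 0.10 without LH replicate 4, and its adjusted p ran from 0.0494 to 0.873 and was past 0.05 in 1 of 24 alternatives. In the fit without LH replicates 3 and 4, 5.41% of all genes passed, and the median of all genes stood at 0.19.

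Prkaca was divided almost evenly between its isoforms. The mean share of Prkaca-202 was 57.2% ± 7.43 in LH mice, 46.2% ± 5.61 in NLH mice, 48.3% ± 5.34 in Ctrl mice and 48.2% ± 6.64 in HC mice (SD, n = 4 each). In the limma test of shares on the arcsine scale, the difference of Prkaca-202 was 0.111 ± 0.0496 in LH vs. NLH (adjusted p of 0.512) and 0.0900 ± 0.0496 in LH vs. Ctrl (0.538). It was 0.0680 ± 0.0551 (0.861) and 0.0474 ± 0.0551 (0.881) without LH replicates 3 and 4. Prkaca-202 was at 14.7, 20.7, 16.3 and 15.7 FPKM in LH mice and 14.2, 12.5, 15.3 and 9.58 in NLH mice, so 1 LH mouse lay within the NLH range. The LH vs. NLH difference was 0.39 ± 0.15 log2 units with a limma adjusted p of 0.495, and the exact permutation p was 0.0571. It was 0.26 ± 0.14 without NLH replicate 4. Prkaca-201, the long-start form, was at 16.7, 14.3, 11.6 and 8.71 FPKM in LH mice and 13.0, 15.7, 16 and 14.8 in NLH mice, a difference of -0.25 ± 0.17 with a limma adjusted p of 0.679. It was 0.061 ± 0.15 without LH replicates 3 and 4 (adjusted p of 0.942).

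Prkacb was measured as 6 isoforms. Prkacb-202 was the main form, with 54.1% of the Prkacb FPKM over all mice, followed by Prkacb-203 with 27.5%, Prkacb-204 with 11.8% and Prkacb-205 with 5.61%. Prkacb-202 was at 20.0, 13.6, 18.2 and 18.1 FPKM in HC mice, 19.2, 20.4, 20.8 and 20.8 in Ctrl, 22, 19.6, 17.6 and 16 in NLH and 25.6, 23.8, 17.2 and 19.0 in LH mice. The Ctrl, NLH and LH groups overlapped for this form, and its limma adjusted p was at least 0.701 in all 4 comparisons.

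Prkacb-203, whose first exon holds only 7 coding bases, was at 8.68, 9.23, 6.36 and 7.42 FPKM in HC mice, 7.48, 7.87, 6.77 and 7.23 in Ctrl, 8.17, 11.3, 12.5 and 9.77 in NLH and 16.9, 11.1, 17.3 and 12.5 in LH mice. All LH mice and all NLH mice lay above all Ctrl mice. The means were 14.4 ± 3.13 FPKM in LH, 10.4 ± 1.88 in NLH and 7.34 ± 0.461 in Ctrl mice (SD, n = 4 each), which is 1.97 times the Ctrl mean in LH and 1.42 times in NLH mice. In LH vs. Ctrl the difference was 0.94 ± 0.17 log2 units, with a limma adjusted p over all transcripts of 0.0644 and an exact permutation p of 0.0286, the smallest that 4 mice against 4 can give. In NLH vs. Ctrl it was 0.49 ± 0.17 (limma adjusted p of 0.758, exact p of 0.0286). LH and NLH mice overlapped, and the difference between them was 0.46 ± 0.17 (limma adjusted p of 0.469, exact p of 0.143). Over its alternatives the adjusted p in LH vs. Ctrl ran from 0.0178 to 0.177 and was past 0.05 in 3 of 23, namely median-ratio size factors (0.166% of all transcripts passed), a filter at a mean of 1 FPKM (0.292% of the 22595 transcripts left), and without LH replicate 2. Without LH replicates 3 and 4 the difference was 0.89 ± 0.20, with a limma adjusted p of 0.0668.

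As a share of the gene, Prkacb-203 was 21.1% ± 1.64 in Ctrl, 24.9% ± 3.43 in HC, 26.6% ± 3.92 in NLH and 37.3% ± 8.48 in LH mice (SD, n = 4 each). The lowest LH mouse was at 27.3% and the highest Ctrl mouse at 23.0%, so LH and Ctrl mice did not overlap. The limma test on arcsine-transformed shares gave an adjusted p of 0.174 for LH vs. Ctrl and 0.47 for LH vs. NLH, and 0.481 and 0.845 without LH replicates 3 and 4.

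**Figure D2:**
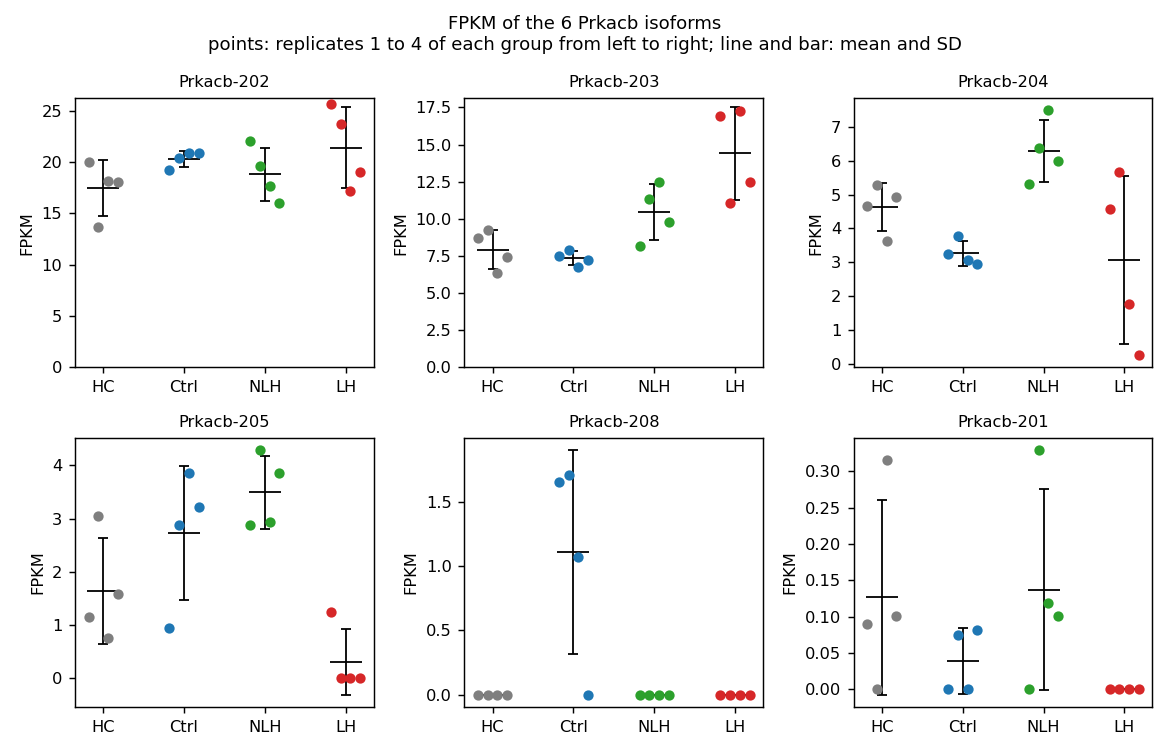
FPKM (vertical axes, linear, each with its own scale) of the 6 Prkacb isoforms in the 4 groups, with each point 1 mouse and the line and bar the mean and SD of 4 mice. The mean of Prkacb-203 is highest in LH mice, which lie at 11.1 to 17.3 FPKM, and that of Prkacb-204 in NLH mice. LH and NLH mice overlap for both, and Prkacb-205 is close to 0 in 3 of the 4 LH mice.

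Prkacb-204, whose first exon lies 5′ of that of Prkacb-203, showed another order of groups. It was at 4.67, 5.27, 3.63 and 4.93 FPKM in HC mice, 3.25, 3.79, 3.08 and 2.95 in Ctrl, 5.32, 6.37, 7.48 and 5.98 in NLH and 4.58, 5.67, 1.78 and 0.276 in LH mice. All NLH mice lay above all Ctrl mice, and the lowest values were those of LH replicates 3 and 4. The NLH mean of 6.29 ± 0.904 FPKM was 1.92 times the Ctrl mean of 3.27 ± 0.372 (SD, n = 4 each), with an exact permutation p of 0.0286. The limma difference was 0.92 ± 0.59 with an adjusted p of 0.994 when all mice shared one estimate of the spread. It stayed at 0.92 with an SE of 0.14 and an adjusted p of 0.0493 without LH replicates 3 and 4, where 0.0412% of all transcripts passed, the 1 of 23 alternatives past 0.05 in a range from 0.0493 to 1. The LH vs. NLH difference was -1.60 ± 0.59 (limma adjusted p of 0.469) and shrank to -0.29 ± 0.17 (adjusted p of 0.571) without those 2 mice. It was -0.78 ± 0.29 without LH replicate 4 alone.

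Prkacb-205 is a retained-intron transcript of 3 exons and 919 bases near the 3′ end of the gene, with 245 bases of its own. It was at 1.16, 3.04, 0.765 and 1.58 FPKM in HC mice, 0.935, 2.88, 3.86 and 3.21 in Ctrl and 2.88, 4.28, 2.93 and 3.86 in NLH mice. In LH replicate 1 it was at 1.24 FPKM, and the other LH mice were at most at 0.000992. All LH mice lay below all NLH mice, and LH replicate 1 lay within the Ctrl range. The difference was -4.21 ± 0.72 log2 units in LH vs. NLH, with a limma adjusted p of 0.0573 and an exact permutation p of 0.0286, and -3.72 ± 0.72 in LH vs. Ctrl, with a limma adjusted p of 0.0952 and an exact p of 0.0571. These logarithms depend on the 0.1 added to values near 0. At the estimated depths the NLH values correspond to between 55.9 and 104 fragments and the highest LH value to 25.1. Without LH replicates 3 and 4 the LH vs. NLH difference was -3.27 ± 0.84 (limma adjusted p of 0.216). Without NLH replicate 1 it was -4.29 with a limma adjusted p of 0.0452. Without LH replicate 1 it was -5.14 with a limma adjusted p of 0.000416, and in LH vs. Ctrl it was then -4.65 with an adjusted p of 0.000879. Over the alternatives the adjusted p ran up to 0.436 in LH vs. NLH, past 0.05 in 2 of 23, and up to 0.366 in LH vs. Ctrl, past 0.05 in 1 of 23.

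Prkacb-208, a transcript of 6 exons and 493 bases with 45 bases of its own, was at 1.66, 1.71 and 1.07 FPKM in Ctrl replicates 1 to 3 and at most at 0.000791 in the other 13 mice. The highest Ctrl value corresponds to 19.1 estimated fragments. The limma adjusted p was 1 in Ctrl vs. HC, 0.35 in NLH vs. Ctrl and 0.14 in LH vs. Ctrl, and it was 3.11e-05, 3.15e-05 and 2.07e-05 in these comparisons without Ctrl replicate 4, the Ctrl mouse that lacks it. That was the 1 of 22 alternatives past 0.05 in each, and over the others the adjusted p ran up to 1, 0.699 and 0.5. The exact permutation p was 0.143 in each. Prkacb-201 did not exceed 0.329 FPKM in any mouse and was at most at 1.02e-05 in LH mice, with a difference of -1.06 ± 0.46 in LH vs. NLH (limma adjusted p of 0.543).

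**Figure D3:**
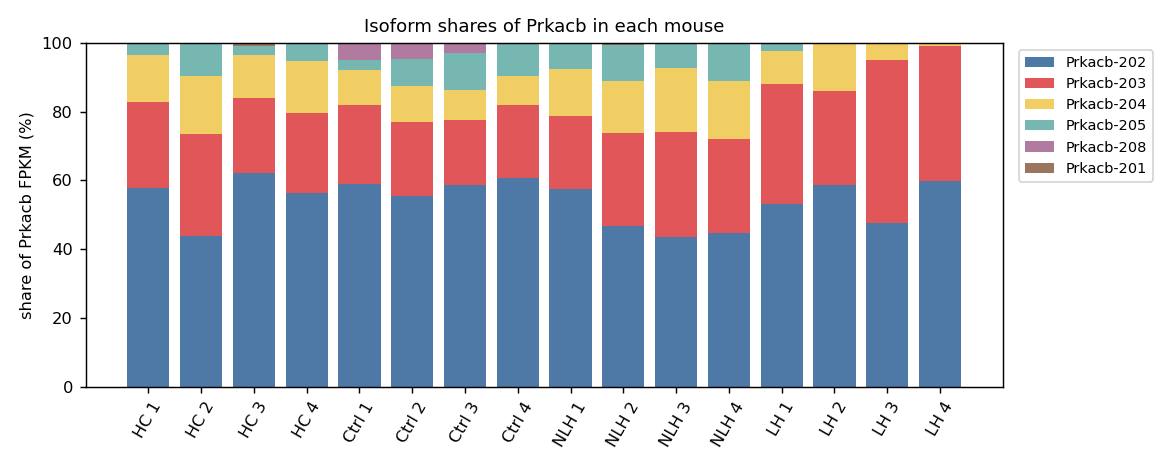
Share of the Prkacb FPKM (vertical axis, percent) given by each of its 6 isoforms in each of the 16 mice, stacked to 100%. The red part, Prkacb-203, spans 19.0% to 23.0% in Ctrl mice and 27.3% to 47.6% in LH mice, and Prkacb-205 (teal) is not visible in LH replicates 2, 3 and 4.

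The type I regulatory genes were the most abundant and their sums overlapped between all groups. Prkar1a lies on the forward strand of chromosome 11 from 109649405 to 109669656. It was at 73.7, 73.2, 65.9 and 71.4 FPKM in HC mice, 66.3, 73.9, 66.8 and 71.1 in Ctrl, 78.3, 81.5, 85.4 and 67.4 in NLH and 89.8, 89.9, 73.8 and 65.1 in LH mice. The 2 highest and the lowest value of all belonged to LH mice. The difference was 0.18 ± 0.11 log2 units in LH vs. Ctrl (limma adjusted p of 0.554) and 0.16 ± 0.11 in NLH vs. Ctrl (0.982). With median-ratio size factors, which scale each library to a common median, the LH vs. Ctrl difference of Prkar1a was 0.26 ± 0.06 with a limma adjusted p of 0.0339. Without LH replicates 3 and 4 it was 0.37 ± 0.09 with an adjusted p of 0.0343. These were the 2 of 24 alternatives past 0.05, and the adjusted p ran up to 0.809. The difference was 0.12 ± 0.11 without LH replicate 1, as it was without LH replicate 2, and 0.28 ± 0.09 without LH replicate 4. Under size factors 2.8% of all genes passed this comparison, against 0% on the FPKM as given.

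Prkar1a-201 carried 72.3% of the Prkar1a FPKM, Prkar1a-203 18.2% and Prkar1a-202 7.81%. Prkar1a-201 was at 63, 70.7, 49.4 and 53.1 FPKM in LH mice and 46.2, 54.5, 45.9 and 49.7 in Ctrl mice, a difference of 0.26 ± 0.12 log2 units with a limma adjusted p of 0.451. LH replicates 3 and 4 lay within the Ctrl range, and without them the difference was 0.45 ± 0.11 (limma adjusted p of 0.0875). It was 0.16 ± 0.11 without LH replicate 2. Prkar1a-202, a transcript of 5 exons, was at 5.14, 5.85, 4.98 and 4.54 FPKM in NLH mice and 6.75, 5.61, 7.06 and 7.82 in Ctrl mice, a difference of -0.40 ± 0.18 with a limma adjusted p of 0.971 and an exact permutation p of 0.0571. Prkar1a-203, whose start lies 5′ of the others, was at 13.5, 18.2, 14.9 and 14.4 FPKM in NLH mice and 11.8, 12.0, 12.9 and 13.6 in Ctrl mice, a difference of 0.27 ± 0.23 (limma adjusted p of 1, exact p of 0.0571). Prkar1a-205 did not meet the rule for a description of its own and ranged from 0 to 4.88 FPKM.

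Prkar1b lies on the reverse strand of chromosome 5 from 139017306 to 139150001. It was at 59.1, 57.7, 55.3 and 64.3 FPKM in HC mice, 55.4, 66.3, 58.9 and 59.8 in Ctrl, 56.4, 65.3, 62.8 and 65.3 in NLH and 73.2, 73.4, 56.1 and 46.4 in LH mice. As for Prkar1a, LH replicates 1 and 2 were above and LH replicate 4 was below all other mice. The LH vs. Ctrl difference was 0.03 ± 0.13 (limma adjusted p of 0.966), and it was 0.29 ± 0.09 (adjusted p of 0.0657) without LH replicates 3 and 4. Leaving out 1 LH mouse gave -0.058 ± 0.13 (replicate 1), -0.060 ± 0.13 (replicate 2), 0.070 ± 0.14 (replicate 3) or 0.16 ± 0.10 (replicate 4), and leaving out a Ctrl mouse gave -0.010 ± 0.14 (replicate 1) or 0.076 ± 0.14 (replicate 2). Prkar1b-201 gave 90.8% of the gene's FPKM, and its group means lay between 51.7 and 57.8 FPKM.

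The other Prkar1b transcripts were rare or present in few mice. Prkar1b-204 was at 2.82, 2.26, 1.66 and 4.01 FPKM in HC mice and 2.81, 4.89, 4.14 and 4.64 in Ctrl mice, a difference of 0.64 ± 0.26 (limma adjusted p of 1, exact permutation p of 0.0857). Prkar1b-206, a transcript of 3 exons and 367 bases, was at 2.30, 4.45 and 4.40 FPKM in HC replicates 1, 3 and 4 and at 0.841 in NLH replicate 4, and was near 0 in the other 12 mice. Its Ctrl vs. HC difference was -3.90 ± 1.02 with a limma adjusted p of 1 and an exact p of 0.143, and without HC replicate 2 it was -5.20 with a limma adjusted p of 0.0166, the 1 of 22 alternatives past 0.05 in a range up to 1. Prkar1b-205 was listed at 0 in all LH mice and did not exceed 0.694 FPKM in any mouse. Its difference in LH vs. Ctrl was -1.71 ± 0.66 with a limma adjusted p of 0.391. Of the Prkar1b exons, 341 bases also belong to Gm15672, a processed transcript annotated on the same strand. Prkar1b-209 and Prkar1b-210 reached at most 5.91 and 1.02 FPKM.

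The type II regulatory genes were the least abundant, and they were the only PKA subunit genes whose sums did not overlap between LH and Ctrl mice. Prkar2a lies on the forward strand of chromosome 9 from 108689314 to 108750436. It was at 6.01, 6.37, 3.00 and 6.78 FPKM in HC mice, 5.94, 6.04, 6.19 and 6.25 in Ctrl, 9.18, 10.7, 8.01 and 6.19 in NLH and 8.02, 7.95, 6.85 and 11.4 in LH mice. The LH mean of 8.55 ± 1.95 FPKM was 1.40 times the Ctrl mean of 6.10 ± 0.142 (SD, n = 4 each), with an exact permutation p of 0.0286. The log2 difference was 0.45 ± 0.23 in LH vs. Ctrl (limma adjusted p of 0.462) and 0.45 ± 0.23 in NLH vs. Ctrl (limma adjusted p of 0.917, exact p of 0.0571).

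The Prkar2a sum divides into a full and a short isoform, and LH mice differed in which of these was higher than in Ctrl mice. Prkar2a-201, the full transcript of 11 exons and 4965 bases, was at 7.63, 7.09, 5.38 and 5.20 FPKM in LH, 5.79, 6.71, 6.86 and 5.32 in NLH, 5.94, 6.03, 5.89 and 6.25 in Ctrl and 6.01, 5.79, 2.69 and 6.54 in HC mice, and differed by 0.05 ± 0.22 log2 units in LH vs. Ctrl (limma adjusted p of 0.985). LH replicates 1 and 2 lay above all Ctrl mice for this isoform and LH replicates 3 and 4 below them, and without the latter the difference was 0.28 ± 0.27 (limma adjusted p of 0.714). Prkar2a-202, of 7 exons and 599 bases, was at 0.398, 0.864, 1.48 and 6.15 FPKM in LH and 3.39, 4.04, 1.15 and 0.875 in NLH mice. It did not exceed 0.302 FPKM in Ctrl and 0.582 in HC mice. All LH and all NLH mice lay above all Ctrl mice. The difference was 3.84 ± 0.79 log2 units in NLH vs. Ctrl (limma adjusted p of 0.255) and 3.37 ± 0.79 in LH vs. Ctrl (0.15), with an exact permutation p of 0.0286 in both. Every base and every splice junction of Prkar2a-202 is also present in Prkar2a-201, so its level rests on how the fragments were divided between them. At the estimated depths its values correspond to between 13.1 and 49.9 fragments in NLH, between 4.49 and 49.7 in LH and at most 3.97 in Ctrl mice. Without LH replicate 4 the LH vs. Ctrl difference was 0.836 FPKM for Prkar2a-202 and 1.51 FPKM for the sum, against 2.15 and 2.44 with all mice. The log2 difference of Prkar2a-202 was 2.28 ± 0.83 without LH replicates 3 and 4 (limma adjusted p of 0.233).

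Prkar2b lies on the reverse strand of chromosome 12 from 31958476 to 32061296. It was at 4.06, 3.71, 3.78 and 3.78 FPKM in HC mice, 4.14, 3.80, 4.09 and 3.77 in Ctrl, 4.77, 4.60, 4.03 and 3.95 in NLH and 6.85, 4.99, 5.75 and 4.25 in LH mice. The LH mean of 5.46 ± 1.11 FPKM was 1.38 times the Ctrl mean of 3.95 ± 0.191 (SD, n = 4 each), and the lowest LH mouse lay just above the highest Ctrl mouse. The difference was 0.44 ± 0.13 log2 units in LH vs. Ctrl, with a limma adjusted p of 0.209 and an exact permutation p of 0.0286. It was 0.31 ± 0.13 in LH vs. NLH (limma adjusted p of 0.635, exact p of 0.114), where the groups overlapped, and 0.19 ± 0.12 without LH replicate 1. In LH vs. Ctrl the adjusted p of Prkar2b ran from 0.031 to 0.563 over its alternatives and was past 0.05 in 3 of 24. These were median-ratio size factors (0.51 ± 0.12, limma adjusted p of 0.0353), leaving out LH replicate 4 (0.55 ± 0.12, 0.0433, with 1.04% of all genes past it) and leaving out LH replicates 3 and 4 (0.56 ± 0.13, 0.031).

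Prkar2b-202 and Prkar2b-203 use different first exons and had mean shares of 50.4% and 48.3%. Prkar2b-203 was at 3.65, 2.05, 4.11 and 4.25 FPKM in LH mice, 3.16, 2.44, 1.71 and 1.69 in NLH, 2.45, 0.498, 1.08 and 1.57 in Ctrl and 1.5, 2.19, 1.10 and 1.43 in HC mice. The LH and Ctrl groups overlapped through LH replicate 2. The difference was 1.41 ± 0.38 log2 units in LH vs. Ctrl, with a limma adjusted p of 0.204 and an exact permutation p of 0.0571. Prkar2b-202 was at 3.06, 2.85, 1.64 and 2.12e-05 FPKM in LH mice and 1.69, 3.23, 3.01 and 2.21 in Ctrl mice, so LH replicate 4 was assigned no measurable level of this form while its Prkar2b-203 was the highest of all mice. Prkar2b-201 did not exceed 0.368 FPKM.

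**Figure D4:**
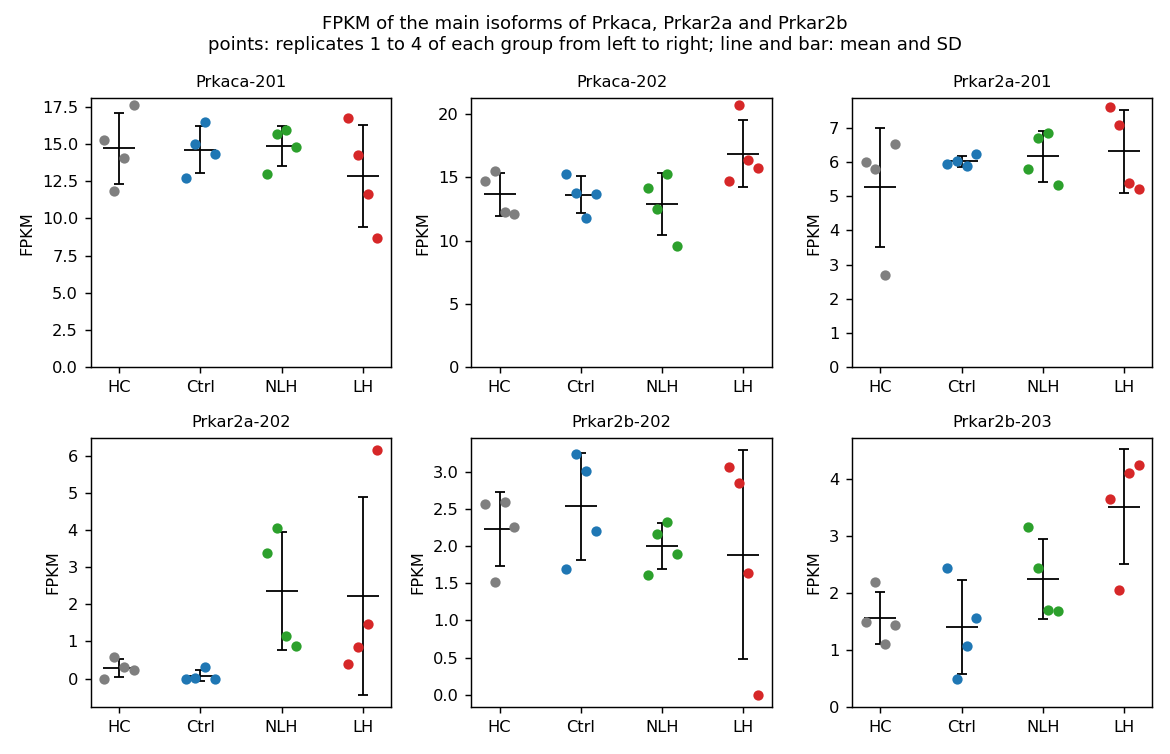
FPKM (vertical axes, linear, each with its own scale) of the main isoforms of Prkaca, Prkar2a and Prkar2b in the 4 groups, with each point 1 mouse and the line and bar the mean and SD of 4 mice. Prkar2a-202 lies at 0.302 or below in Ctrl mice and between 0.398 and 6.15 in LH mice, while Prkar2a-201 overlaps between these groups.

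Counted over the comparisons, no PKA subunit gene passed the limma adjusted threshold of 0.05. This was the case for 0 of the 6 genes in Ctrl vs. HC (0% of all genes passed), in NLH vs. Ctrl (0.00547%), and for LH mice against Ctrl (0%) and against NLH mice (0.0109%). At an unadjusted limma p under 0.05 Prkar2b was the 1 gene in LH vs. Ctrl, where 11.5% of all genes were that far apart, and it was again the 1 gene when LH was set against NLH, where 7.54% were. None was in Ctrl vs. HC (2.7%) or NLH vs. Ctrl (5.59%). All 6 genes had a higher mean log2 level in LH than in Ctrl mice, with a median difference of 0.17 against 0.00 over all genes. Without LH replicates 3 and 4 their differences lay between 0.23 and 0.56, and the median over all genes was 0.19. In NLH vs. Ctrl 5 of 6 were higher in NLH mice, with a median of 0.15 against 0.06. Groups did not overlap for 2 of the 6 genes in LH vs. Ctrl, both higher in LH, where 4.05% of all genes were higher without overlap.

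Of the 23 isoforms, 0 passed the limma adjusted threshold in any comparison, where 0.00374% of all transcripts passed in Ctrl vs. HC, 0.0125% in NLH vs. Ctrl, 0.0462% in LH vs. Ctrl and 0.0412% for LH against NLH. At an unadjusted limma p under 0.05 there were 3 isoforms in Ctrl vs. HC (3.45% of all transcripts), 4 in NLH vs. Ctrl (5.12%), 7 in LH vs. Ctrl (10.7%) and 5 for LH against NLH mice (8.72%). The test of the study's methods, which compares FPKM assuming equal variances and takes an unadjusted p under 0.05, called 3 isoforms in Ctrl vs. HC (6.68% of all transcripts), namely Prkacb-204, Prkacb-208 and Prkar1b-206. It called 6 in NLH vs. Ctrl (7.2%), which were Prkacb-203, Prkacb-204, Prkacb-208, Prkar1a-202, Prkar1a-203 and Prkar2a-202. In LH vs. Ctrl it called 4 (7.69%), which were Prkacb-203, Prkacb-205, Prkacb-208 and Prkar2b-203, and between LH and NLH mice 1 (4.47%), Prkacb-205. With LH replicates 3 and 4 left out it called 8 isoforms in LH vs. Ctrl (13.7% of all transcripts) and 5 between LH and NLH mice (6.39%). For the latter pair it called 4 with median-ratio size factors (4.84%) and 2 on the log2 scale (4.98%). None of these was left with adjustment over all transcripts, which 0.00126%, 0.00379%, 0.00885% and 0% of all transcripts passed in these 4 comparisons. Shares of a gene's FPKM gave 0 of 23 isoforms past the limma adjusted threshold in every comparison, where 0%, 0.0156%, 0.0223% and 0.0423% of the 44904 transcripts tested for their share passed. Groups did not overlap for 3 isoforms that were higher in NLH than in Ctrl mice (Prkacb-203, Prkacb-204 and Prkar2a-202, beside 2.88% of all transcripts), and for 2 that were higher in LH than in Ctrl mice (Prkacb-203 and Prkar2a-202, beside 2.34%). Lower without overlap were Prkar1b-209 in NLH against Ctrl mice (beside 2.14% of all transcripts), Prkar1b-205 in LH against Ctrl mice (3.52%), and Prkacb-205 and Prkar1b-205 in LH against NLH mice (2.25%). Prkar1b-205 and Prkar1b-209 were at or near 0 in most mice. The study set aside transcripts called in Ctrl vs. HC or NLH vs. Ctrl, which leaves Prkacb-205 and Prkar2b-203 in LH vs. Ctrl. NLH vs. Ctrl and LH vs. Ctrl share the Ctrl mice, as Ctrl vs. HC does. The exact permutation test was run 116 times over genes and isoforms and reached its minimum of 0.0286 in 8 of them. Prkacb was also one of the genes that the study selected for real time PCR, so its description here does not stand apart from that choice. The paper reports a significant difference of Prkacb between LH and Ctrl mice by real time PCR, in more mice per group than were sequenced.

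**Figure D5:**
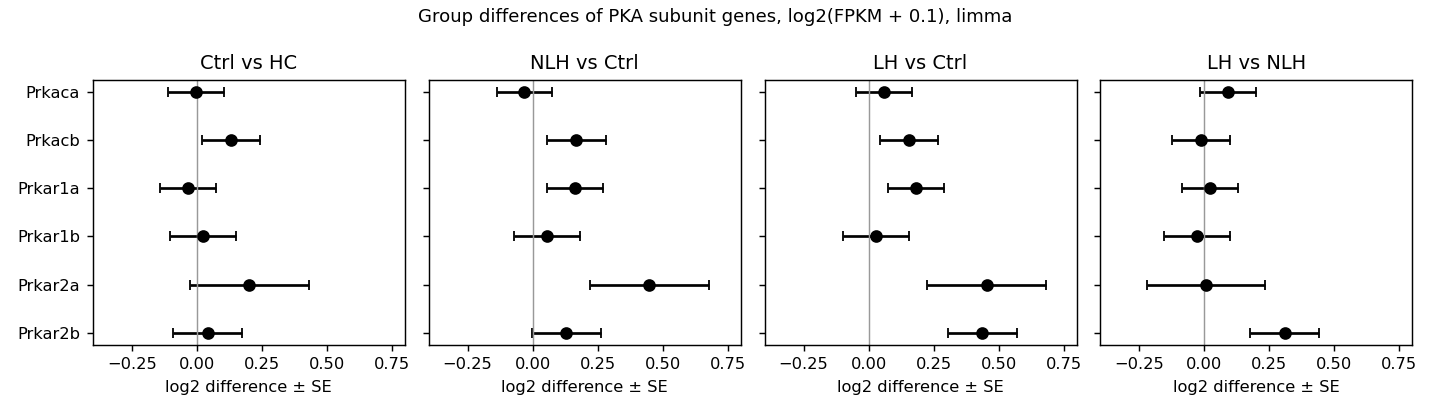
Differences between groups on the log2(FPKM + 0.1) scale (horizontal axes) for the 6 PKA subunit genes (vertical axis) in the 4 comparisons, with points the limma estimate and bars its SE, and a grey line at 0. In LH vs. Ctrl all 6 points lie right of 0, with Prkar2a at 0.45 and Prkar2b at 0.44 farthest from it, and in LH vs. NLH only Prkar2b lies more than 0.3 from 0.

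The rest of the cAMP pathway was followed with a list of 110 genes in 10 roles, of which 105 were measured. None passed the limma adjusted threshold in any of the 4 comparisons. At an unadjusted limma p under 0.05 there were 5 in Ctrl vs. HC, 15 in NLH vs. Ctrl, 14 in LH vs. Ctrl and 5 for LH against NLH mice. These are 4.76%, 14.3%, 13.3% and 4.76% of the list, beside 2.7%, 5.59%, 11.5% and 7.54% of all genes. Of those in NLH vs. Ctrl, 11 had their higher mean among NLH mice and 4 their lower, with 4.43% and 1.16% of all genes on these sides. For LH against Ctrl mice the split was 10 and 4 (7.03% and 4.49% of all genes), and for LH against NLH mice it was 3 and 2 (2.75% and 4.79%). With median-ratio size factors 7 list genes passed the adjusted threshold in LH vs. Ctrl, where 2.8% of all genes did, and without LH replicates 3 and 4 there were 9, where 5.41% did.

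Upstream of PKA, 2 of the 10 adenylyl cyclases were higher at an unadjusted p under 0.05 in LH vs. NLH, as were 2.75% of all genes. None was in LH vs. Ctrl (11.5% of all genes in either direction) or Ctrl vs. HC (2.7%), and 1, Adcy8, was lower in NLH vs. Ctrl (1.16% of all genes). Adcy8, a calcium-stimulated cyclase, was at 1.75 ± 0.285 FPKM in LH and 0.852 ± 0.245 in NLH mice (SD, n = 4 each), a difference of 0.98 ± 0.21 log2 units with a limma adjusted p of 0.244. Adcy1, also stimulated by calcium and much more abundant, was at 48.9 ± 7.51 and 37.9 ± 3.56 FPKM, a difference of 0.36 ± 0.12 with a limma adjusted p of 0.503. In LH vs. Ctrl the differences were 0.40 ± 0.21 for Adcy8 and 0.12 ± 0.12 for Adcy1. Of the 10 measured receptors that raise cAMP, 3 had an unadjusted limma p under 0.05 in LH vs. Ctrl (11.5% of all genes). They were Drd1 (higher) and Adcyap1r1 and Vipr2 (both lower), and the median difference over the 10 was -0.33. These names were chosen after their values were seen. For the receptors the count was 1 in Ctrl vs. HC (2.7% of all genes) and 0 in NLH vs. Ctrl (5.59%) and for LH against NLH mice (7.54%). Of the 6 G protein alpha subunits 1 was higher in LH vs. Ctrl, where 7.03% of all genes were. Of the 3 PKA inhibitor peptides 1 was higher in NLH vs. Ctrl, where 4.43% of all genes were. Both lists had 0 in the other comparisons. None of the 16 phosphodiesterases, which degrade cAMP, was at an unadjusted limma p under 0.05 in Ctrl vs. HC (2.7% of all genes were), NLH vs. Ctrl (5.59%), LH vs. Ctrl (11.5%) or against NLH mice (7.54%).

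Of the 14 A kinase anchoring proteins, which tether PKA through its regulatory subunits, 4 were higher at an unadjusted limma p under 0.05 in LH vs. Ctrl (7.03% of all genes were) and 4 in NLH vs. Ctrl (4.43%). Akap5, an anchor at the postsynaptic density, was at 9.04 ± 0.848 FPKM in LH and 7.18 ± 0.315 in Ctrl mice, a difference of 0.33 ± 0.11 with a limma adjusted p of 0.264. Akap8, a nuclear anchor, was at 3.23 ± 0.913 and 1.72 ± 0.368 FPKM, a difference of 0.86 ± 0.22 with a limma adjusted p of 0.154. Of the 10 measured PKA substrates, 2 were at an unadjusted limma p under 0.05 in LH vs. Ctrl, 4 in NLH vs. Ctrl, 1 in Ctrl vs. HC and 1 for LH against NLH mice, beside 11.5%, 5.59%, 2.7% and 7.54% of all genes. Arpp19 was at 15.9 ± 2.08 FPKM in LH and 12.0 ± 0.678 in Ctrl mice (0.40 ± 0.09, limma adjusted p of 0.139), and Arpp21 at 35.9 ± 4.68 and 28.0 ± 0.981 (0.35 ± 0.10, 0.208). Both are phosphoproteins regulated by cAMP. With LH replicates 3 and 4 left out, the limma adjusted p was 0.0451 for Akap5 (0.43 ± 0.11) and 0.0314 for Arpp19 (0.43 ± 0.10), where 5.41% of all genes passed. Over the alternatives it ran up to 0.543 for Akap5, past 0.05 in 1 of 24, and up to 0.493 for Arpp19, past 0.05 in 3 of 24. Itpr1, the inositol trisphosphate receptor, was at 9.53 ± 1.69 FPKM in LH and 6.13 ± 1.17 in NLH mice (0.63 ± 0.17, limma adjusted p of 0.374).

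Downstream, Crtc2, a coactivator of CREB, was at 2.84 ± 0.893 FPKM in LH, 4.89 ± 0.789 in Ctrl and 4.22 ± 0.706 in NLH mice (SD, n = 4 each). The differences were -0.81 ± 0.22 in LH vs. Ctrl (limma adjusted p of 0.161) and -0.60 ± 0.22 in LH vs. NLH (0.558). They were -0.45 ± 0.18 (0.149) and -0.24 ± 0.18 (0.546) without LH replicates 3 and 4. The adjusted p in LH vs. Ctrl ran from 0.0496, with median-ratio size factors, to 0.493. Rapgef3, which encodes the cAMP-activated exchange factor Epac1, was at 3.94 ± 0.913 FPKM in LH and 5.32 ± 0.762 in NLH mice (-0.45 ± 0.20, limma adjusted p of 0.638), and at a difference of -0.29 ± 0.21 (0.528) without those 2 mice. Of the 11 genes of CREB and its coactivators, 1 had an unadjusted limma p under 0.05 in LH vs. Ctrl (11.5% of all genes). There were 1 for LH against NLH mice (7.54%), 2 in NLH vs. Ctrl (5.59%) and 0 in Ctrl vs. HC (2.7%). For the 8 measured other cAMP effectors and related kinases the counts were 1, 1, 1 and 0 in the same order. Of the 17 CREB target genes, 3 were at an unadjusted limma p under 0.05 in Ctrl vs. HC, all higher in Ctrl (2.7% of all genes passed in either direction), 2 in NLH vs. Ctrl (5.59%), 2 in LH vs. Ctrl (11.5%) and 0 for LH against NLH mice (7.54%).

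Lastly, the genes whose levels over the 16 mice were most like each subunit were taken by Pearson's r of log2(FPKM + 0.1), among 10436 genes with a mean of at least 1 FPKM. They were Arl6ip1, Tspan3 and Ank for Prkaca (r of 0.942, 0.924 and 0.924), App, Camsap2 and Josd1 for Prkacb (0.965, 0.955 and 0.95), and Cltc, Reep5 and Eif4a2 for Prkar1a (0.968, 0.968 and 0.965). For Prkar1b they were Syngr1, Tmem130 and Tuba1a (0.966, 0.95 and 0.945), for Prkar2a Dnajb4, Zfp111 and Zbtb24 (0.904, 0.871 and 0.832) and for Prkar2b Rab6a, Prkaa2 and Bmpr2 (0.963, 0.939 and 0.926). Spearman's rho of these pairs was between 0.771 and 0.982. Without the 2 mice farthest from the median of the subunit, r was between 0.692 and 0.958. The lowest was that of Prkar2a and Zbtb24. All points share their library and its scaling, and LH mice were among the 2 left out for each of the 6 subunits.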

How the data were processed

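Hippocampal RNA of 16 mice in 4 groups of 4 was measured, with 1 library per mouse. The authors aligned reads to mm10, assembled and merged transcripts with StringTie and deposited 1 FPKM value per transcript and mouse from Cufflinks. The paper names HISAT2 as aligner and the submitters' processing notes list STAR 2.42a with StringTie 1.2.3. Whether the libraries kept strand is not given in the sources used here. Where isoforms share exons, Cufflinks divides fragments by estimation, which affects isoform values more than gene sums. FPKM steps at 1343 loci with 1 transcript of over 2000 bases gave an estimate of depth, taking fragments as 200 bases long, and between 72.9% and 82.3% of the values used lay within 0.1 of a whole fragment. As counts were not used here, no counting interval is given.

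FPKM were summed by gene name. Limma 3.58.1 (R 4.3.3, with the data.table package, 1.17.8) was run on log2(FPKM + 0.1) with the means of the 4 groups as terms and 16 mice in the fit. Its moderation was robust and followed the mean level, and p-values were adjusted by Benjamini-Hochberg over all genes or all transcripts. Fold changes on this scale understate those of low transcripts. Shares of a gene's FPKM were tested on the arcsine square root over 44904 transcripts of genes with a mean of at least 1 FPKM. Exact permutation tests were two-sided. Other work used Python 3.11.15, numpy 2.4.6, pandas 2.3.3, scipy 1.17.1 and matplotlib 3.10.9. The fits were tested on simulated data. p-values cover the spread between these mice only.

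Genes named were all 6 subunits. Isoforms with at least 5% of their gene or with an unadjusted p under 0.05 in limma or the study's test, 19 in all, were described singly. Pathway genes were those past the adjusted threshold or else the 5 with the smallest p in each LH comparison among genes of at least 1 FPKM. The members and lists were chosen with earlier results of these data known. The 11 unnamed assembled transcripts at these loci entered only an alternative. Mice with the same number were not found to be paired, as the median r of their deviations from group means was -0.00835 over 24 pairs. Alternatives were 0.01 or 1 added before the logarithm, a mean of at least 1 FPKM, median-ratio size factors, only the groups compared, a replicate block, other forms of the study's test and each mouse left out. Leaving out LH replicates 3 and 4 together and adding unnamed transcripts were chosen after the data were seen.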

Additional observations from a re-analysis of the deposited data

Results flagged for a closer look

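Listed here are 5 isoform and group combinations, all of isoforms described singly, in which 1 mouse stood apart from the other 3 by Dixon's criterion. They are not a count over all 92 combinations, as others met it too. Prkar1b-209 reached 5.91 FPKM in 1 HC, 2.84 in 1 Ctrl and 0.884 in 1 LH mouse. Prkar2b-201 reached 0.368 FPKM in 1 NLH mouse. In each case the other mice of the group were near 0. The 5 that follow can therefore not be set against the about 1 in 20 that chance gives. LH replicate 1 had 1.24 FPKM of Prkacb-205 while the other LH mice were at most at 0.000992. LH replicate 3 had 2.68 FPKM of Prkar1b-204 against 4.24 to 4.48 in the other LH mice. HC replicate 3 had 0.434 FPKM of Prkar1b-205, NLH replicate 4 had 0.841 FPKM of Prkar1b-206 and Ctrl replicate 3 had 0.302 FPKM of Prkar2a-202, each with the other mice of the group near 0. Among transcripts without a gene name, one assembled at the Prkar1b locus (MSTRG.57166.5) reached 2.03 FPKM in an NLH mouse and was at most at 0.000248 in HC, 0.000121 in Ctrl and 0.00052 in LH mice.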

How the results depend on the processing

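The gene sums and isoforms gave 0 PKA subunits past the limma adjusted threshold in most settings. Median-ratio size factors gave 2 genes, 1 isoform and 7 pathway genes in LH vs. Ctrl (2.8% of all genes and 0.166% of all transcripts), and a mean of at least 1 FPKM gave 1 isoform there (0.292% of the 22595 transcripts left). Without LH replicates 3 and 4 together there were 3 genes and 9 pathway genes in LH vs. Ctrl (5.41% of all genes) and 1 isoform in NLH vs. Ctrl (0.0412% of all transcripts), and the test of the study called 8 isoforms in LH vs. Ctrl (13.7% of all transcripts) and 5 where LH was set against NLH (6.39%). With each mouse left out in turn, the adjusted counts in LH vs. Ctrl ran from 0 to 1 for genes and for pathway genes, each with the 1 coming without LH replicate 4 (1.04% of all genes). They ran from 0 to 1 in every comparison for isoforms and for isoform shares, with the 1 coming without HC replicate 2, Ctrl replicate 4, LH replicates 1 or 2 or, for isoforms, NLH replicate 1. Over the 16 fits with a mouse left out, the share of all transcripts that passed ran from 0% to 0.0162% in Ctrl vs. HC, 0.00998% to 0.0586% in NLH vs. Ctrl, 0.015% to 0.387% in LH vs. Ctrl and 0.02% to 0.302% for LH against NLH. For isoform shares it reached at most 0.029%, 0.0713%, 0.359% and 0.194% of the 44904 transcripts tested. The causes were not tested.

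The test of the study moved more. In Ctrl vs. HC it called 1 isoform with unequal variances (5.22% of all transcripts tested) and 1 with a mean of at least 1 FPKM (11.3% of those left), and from 1 to 3 with a mouse left out (5.49% to 6.4%). In NLH vs. Ctrl it called 3 with unequal variances (5.52%) and from 2 to 6 with a mouse left out (5.62% to 8.48%). In LH vs. NLH it called 2 on the log2 scale (4.98% of all transcripts), 4 with size factors (4.84%) and from 1 to 4 with a mouse left out (3.18% to 5.46%). Benjamini-Hochberg adjustment left 0 in every comparison, and setting aside transcripts called in Ctrl vs. HC or NLH vs. Ctrl left 2 in LH vs. Ctrl. The counts were lower without HC replicate 3 or Ctrl replicate 3 (Ctrl vs. HC, 1 each) and without Ctrl replicates 1, 2 or 3 (NLH vs. Ctrl, 3, 3 and 2), and in LH vs. NLH they were higher without NLH replicate 1 (2), LH replicate 2 (4) or LH replicate 3 (2). With the replicate block, by which same-numbered mice are paired, the test of the study called 1 isoform in Ctrl vs. HC (5.08%), 2 in NLH vs. Ctrl (5.86%) and 2 in LH vs. Ctrl (5.29%). The block took no gene or isoform past the limma adjusted threshold. Mice with the same number shared only that number, and 7 of 16 mice correlated best with a mouse of their own number.

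Small gene differences changed sign. In LH vs. NLH, Prkacb was at 0.11 with size factors, 0.18 without LH replicates 3 and 4 and 0.0039 with unnamed transcripts, Prkar1b at 0.092 and 0.23 in the first 2 of these, and Prkar2a at -0.066 without LH replicates 3 and 4. With a mouse left out, log2 differences ran from -0.038 to 0.024 (Ctrl vs. HC), -0.090 to 0.028 (NLH vs. Ctrl) and -0.023 to 0.15 (LH vs. Ctrl) for Prkaca, from -0.12 to 0.083 (LH vs. NLH) for Prkacb and from -0.050 to 0.11 (LH vs. NLH) for Prkar1a. For Prkar1b they ran from -0.025 to 0.064 (Ctrl vs. HC), -0.060 to 0.16 (LH vs. Ctrl) and -0.12 to 0.10 (LH vs. NLH), and for Prkar2a from -0.064 to 0.32 (Ctrl vs. HC) and -0.14 to 0.12 (LH vs. NLH). The 8 exact permutation tests that had reached 0.0286 kept their direction in all alternatives. With a mouse left out, Prkacb-204 in NLH vs. Ctrl and Prkacb-205 in LH vs. NLH stayed at 0.0286. The other 6 rose above 0.05 with any Ctrl mouse left out, to an exact p of 0.0571, or for Prkar2a-202 of 0.0857 in NLH vs. Ctrl and 0.171 in LH vs. Ctrl. Paired, the smallest possible p is 0.125. Over all alternatives the limma adjusted p in LH vs. Ctrl ran from 0.15 to 0.953 for Prkaca, 0.0657 to 1 for Prkar1b, 0.282 to 0.651 for Prkar2a, 0.0875 to 0.708 for Prkar1a-201 and 0.0878 to 0.366 for Prkar2a-202. At the estimated depths all values of Prkar2a-202 rest on at most 49.9 fragments, and an effect of depth was not tested.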
